A study of Mus musculus with 28 samples.

Results

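The cytoplasmic ribosomal protein genes were followed through 11 lists of chromatin immunoprecipitation (ChIP-seq) peaks for CTCF, Rad21 and Ldb1 from mouse olfactory sensory neurons. They were chosen by name from the mouse RefSeq annotation: protein-coding genes whose symbol is Rpl or Rps with a number and at most 1 of the letters a, x, y and l, together with Rplp0, Rplp1, Rplp2 and Rpsa. The rule gave 81 of 21779 protein-coding genes, namely 44 of the large subunit, 3 of the P stalk, 30 of the small subunit and 4 paralogs (Rpl3l, Rpl10l, Rpl39l and Rps27l). Rpl32l is counted with the large subunit by its symbol. The rule uses no peak value, but this list of genes was chosen with earlier results of these data known.

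The study asked how Ldb1, an adaptor protein that joins enhancer-bound transcription factors, acts in contacts between olfactory receptor enhancers. Control lists came from mature olfactory sensory neurons of OMP-IRES-GFP mice, in which GFP is expressed from the Omp locus of mature neurons: 2 libraries for CTCF, 2 for Rad21 and 3 for Ldb1. The Lhx2 KO group held 2 Ldb1 libraries from mature neurons of Lhx2fl/fl mice with OMP-IRES-Cre and the reporter Rosa-CAG-tdtom+/fl. There Cre made from the Omp locus deletes the LIM homeodomain factor Lhx2 late, in cells that have already matured. The Olfr1507 group held 2 Ldb1 libraries from sorted Olfr1507+ cells of M28-IRES-GFP mice, that is, neurons that express 1 receptor gene. Cells of all these groups were fixed with formaldehyde and sorted. The labels give no ages and name no animals, so the libraries within a group may or may not be separate mice, and any p-value measures the spread between libraries, which may be technical. Of the 28 samples of the series, the 3 input and 14 RNA samples were not analysed here.

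Each cytoplasmic ribosome is built from a small subunit, which decodes the mRNA, and a large subunit, which forms the peptide bond, and every cell needs the protein components of both in nearly equal amounts. Their genes are among the most actively transcribed in any cell, including neurons, and their promoters are typically rich in CpG and start with a run of pyrimidines. CTCF is a zinc finger protein that binds a long DNA motif and halts loop extrusion by cohesin, of which Rad21 is a subunit. Ldb1 has no DNA-binding domain of its own and reaches DNA through partners such as Lhx2.

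The lists held from 542 peaks (second Lhx2 KO library) to 34210 (second CTCF library) on the main chromosomes, so the libraries differ widely before any gene is considered. The control lists held 27609 and 34210 peaks for CTCF, 10487 and 28151 for Rad21, and 24877, 28879 and 16067 for Ldb1, the Lhx2 KO lists 4290 and 542, and the Olfr1507 lists 5095 and 21250. Peaks had been called per library. The number of reads behind a peak is unknown, and a missing peak is a call below a threshold, not an absence of the protein. Peak lists hold no expression, so the loss of Lhx2 could not be checked in these libraries. At the genes that mark the cells, a control Ldb1 region lay within 10 kb of 6 of 6 mature neuron genes, 2 of 2 immature neuron genes (Gap43 and Gng8), 1 of 3 basal cell genes (Krt5), 0 of 3 sustentacular genes and 0 of 2 immune and blood genes, beside 39.6% of all genes.

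Promoters of 8 of the ribosomal protein genes are shown first because the Ldb1 results turn on them: Rpl26, Rpl10, Rps23, Rpl35a and Rpl10a had control Ldb1 peaks near the start, and Rpl26, Rpl10a, Rpl7a and Rpl9 were the only ribosomal protein genes with a peak near the start in an Lhx2 KO list. Rplp0 had the highest-ranked CTCF peak of all 81 genes. Rpl9 and Rplp0 were added to the printed set after their values were seen. The sequences come from RefSeq on GRCm38.p6 (the mm10 build), each running from 200 bases before the annotated start through the first 20 bases from the start on. Rpl26 lies at chr11:68901366-68901585 on the plus strand, Rpl10 at chrX:74270616-74270835 on the plus strand, Rps23 at chr13:90922922-90923141 on the plus strand, and Rpl35a at chr16:33056253-33056472 on the plus strand. Rpl10a lies at chr17:28328271-28328490 on the plus strand, Rpl7a at chr2:26910607-26910826 on the plus strand, Rpl9 at chr5:65391412-65391631 on the minus strand, and Rplp0 at chr5:115559267-115559486 on the plus strand. Capitals mark, on either strand, the 5 motifs searched: CCGGAAG (the core bound by ETS factors), AAGATGG (YY1), GGGCGG (the GC box bound by Sp1), TAATTA (LIM homeodomain factors such as Lhx2) and TATAAA (the element bound by TBP).
Rpl26: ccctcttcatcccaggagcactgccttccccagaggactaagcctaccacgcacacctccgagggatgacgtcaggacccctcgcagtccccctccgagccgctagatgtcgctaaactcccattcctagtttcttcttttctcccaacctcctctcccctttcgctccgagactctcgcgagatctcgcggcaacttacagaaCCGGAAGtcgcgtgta
Rpl10: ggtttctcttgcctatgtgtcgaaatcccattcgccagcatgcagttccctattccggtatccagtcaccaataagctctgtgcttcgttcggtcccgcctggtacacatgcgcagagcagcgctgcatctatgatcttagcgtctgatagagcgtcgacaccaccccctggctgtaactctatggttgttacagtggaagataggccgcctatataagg
Rps23: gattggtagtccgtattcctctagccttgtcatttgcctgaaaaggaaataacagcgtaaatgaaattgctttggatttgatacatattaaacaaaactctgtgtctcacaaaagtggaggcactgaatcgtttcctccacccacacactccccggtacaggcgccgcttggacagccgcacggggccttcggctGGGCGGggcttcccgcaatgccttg
Rpl35a: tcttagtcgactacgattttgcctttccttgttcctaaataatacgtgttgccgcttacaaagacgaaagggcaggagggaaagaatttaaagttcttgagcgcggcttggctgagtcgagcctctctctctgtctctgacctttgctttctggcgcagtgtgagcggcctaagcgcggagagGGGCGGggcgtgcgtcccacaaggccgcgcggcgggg
Rpl10a: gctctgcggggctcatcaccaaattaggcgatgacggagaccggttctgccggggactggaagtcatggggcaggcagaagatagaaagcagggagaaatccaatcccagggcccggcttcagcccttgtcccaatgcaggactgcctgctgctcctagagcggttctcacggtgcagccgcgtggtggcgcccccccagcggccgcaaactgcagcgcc
Rpl7a: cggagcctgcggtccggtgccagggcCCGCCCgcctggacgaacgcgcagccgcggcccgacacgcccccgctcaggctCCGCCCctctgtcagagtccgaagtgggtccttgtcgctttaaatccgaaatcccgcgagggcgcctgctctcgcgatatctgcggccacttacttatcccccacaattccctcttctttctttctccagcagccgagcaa
Rpl9: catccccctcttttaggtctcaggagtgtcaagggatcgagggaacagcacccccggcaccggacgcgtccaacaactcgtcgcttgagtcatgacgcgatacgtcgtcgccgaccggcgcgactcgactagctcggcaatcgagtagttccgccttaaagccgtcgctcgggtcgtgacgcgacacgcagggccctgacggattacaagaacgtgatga
Rplp0: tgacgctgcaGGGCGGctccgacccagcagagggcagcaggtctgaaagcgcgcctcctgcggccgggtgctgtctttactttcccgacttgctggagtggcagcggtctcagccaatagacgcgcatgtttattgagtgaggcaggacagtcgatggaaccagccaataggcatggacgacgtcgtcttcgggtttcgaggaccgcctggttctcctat

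The ETS core matched in the Rpl26 promoter and the GC box in those of Rps23, Rpl35a, Rpl7a and Rplp0. No TAATTA was present in these 8 windows. The windows do not cover the Ldb1 peaks in full. Control Ldb1 regions were centred outside them, at −296 (Rpl26), −553 (Rpl10), −273 (Rps23), −261 (Rpl35a) and +96 bases (Rpl10a). So were the Lhx2 KO peaks of Rpl26 (−288), Rpl7a (−246) and Rpl10a (+40). Much of the sequence under these peaks was thus not searched. Across the 61 ribosomal protein genes with a promoter in the RefSeq table (250 bases before to 50 after the start), CCGGAAG was present in 24 (39.3%), beside 11.9% of all 17492 protein-coding promoters of the same length. AAGATGG was present in 9 (14.8%, beside 6.35%), GGGCGG in 35 (57.4%, beside 46.3%) and TATAAA in 7 (11.5%, beside 13.3%). TAATTA was present in 2 (3.28%), those of Rps26 and Rpl32l, beside 4.69% of all promoters. A cytosine at the start or within 2 bases of it, followed by at least 4 pyrimidines, was present in 21 (34.4%), beside 8.76%. These promoters had a median GC content of 57.0%, close to the 56.3% of all promoters, but a median ratio of observed to expected CpG of 0.857 beside 0.577. These are matches of letters in a window, not binding sites.

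The ribosomal protein genes are short, which bears on any count of peaks near them. Their bodies ran from 592 to 11774 bases, with a median of 3175, beside 17217 over all protein-coding genes, and 76 of 81 fell in the 3 shortest of 10 length bins. They had on average 1.59 other protein-coding genes within 10 kb, beside 1.18 for other genes of like length. The median was 1 both for them and for other genes, and 13.6% of them, beside 13.7% of like length, had 3 or more such neighbours. Small nucleolar RNA genes lay inside 23 of them (28.4%), beside 0.209% of genes of like length. Every share below is therefore set beside the share among other protein-coding genes of like length, weighted to the members' length bins. Receptor genes made up 8.34% of that comparison set. Among genes with a promoter entry, the mean ratio of observed to expected CpG was 0.833 in the 61 members and 0.445 in other genes of like length, so a comparison also matched on promoter CpG content is given. It was added after the data were seen and uses only those 61 members, so it changes the members as well as the genes set beside them. The plain like-length comparison of the same 61 members is therefore given with it. The CpG matching used coarse bins of the ratio. The highest bin held 55.7% of the 61 members, beside 17.1% of other genes of like length. The ratio may thus still differ within bins. No test over genes was made, since the genes of a list are not replicates.

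**Figure D1:**
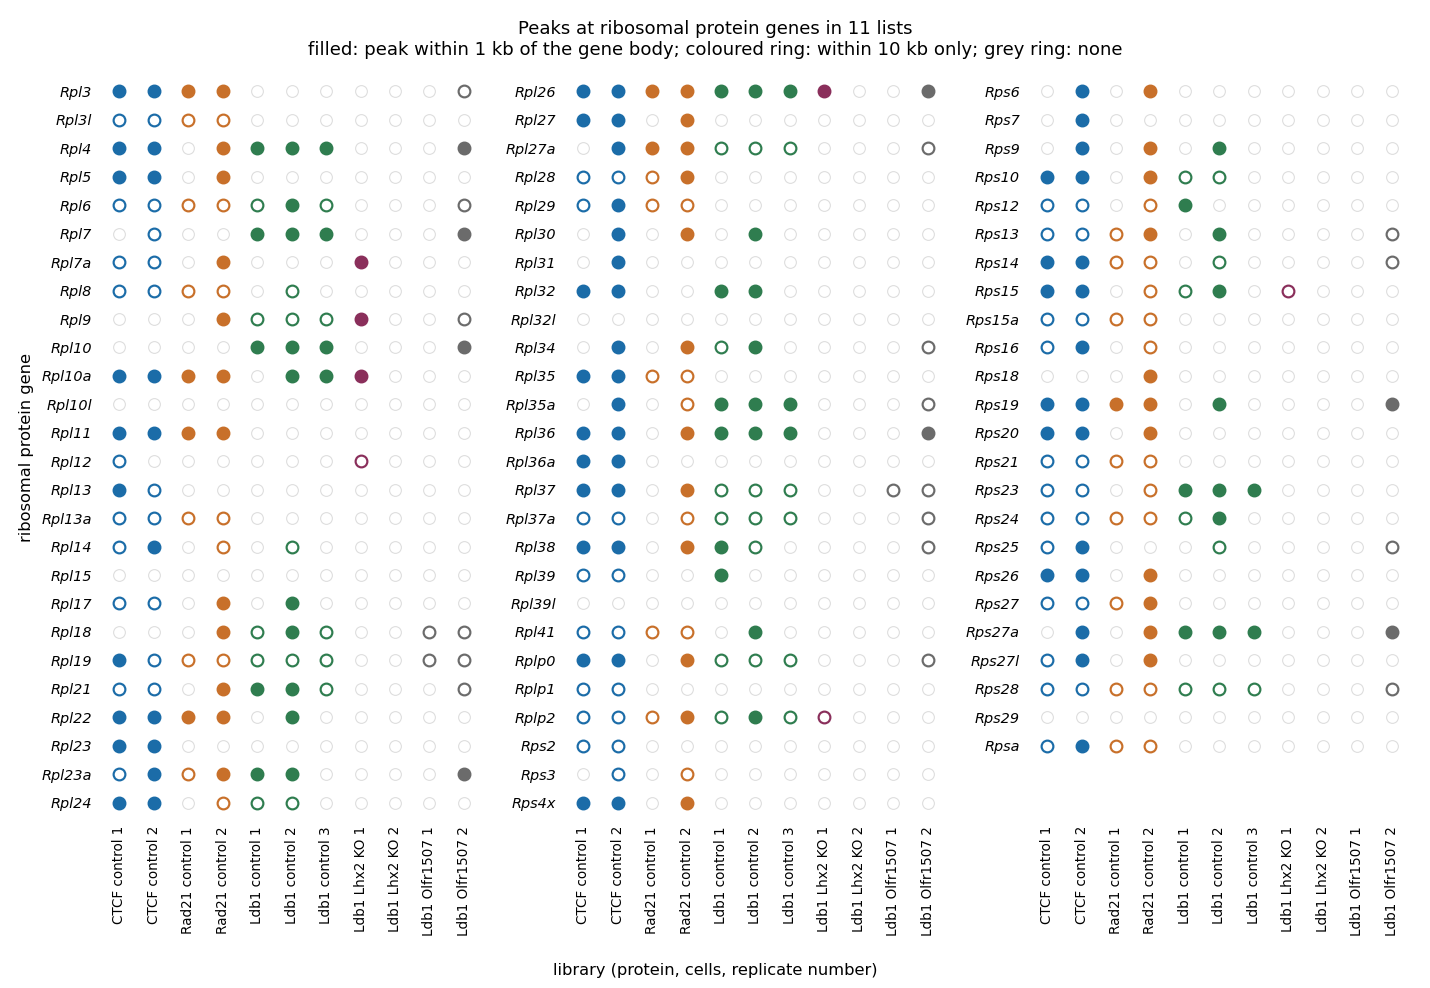
Peaks at each of 76 of the 81 ribosomal protein genes (rows, in 3 panels) in each of the 11 libraries (columns). Filled circles mark a peak within 1 kb of the gene body, coloured rings a peak within 10 kb only, and grey rings no peak. Rpl26 was near a peak in 9 libraries, and the columns of the second Lhx2 KO library and the first Olfr1507 library hold no filled circle.

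Of the regions shared between libraries, those of CTCF lay beside the most ribosomal protein genes, as they also did over all protein-coding genes. A region, meaning peaks that overlap between 2 or more libraries of the same group, lay within 1 kb of the body of 27 of 81 (33.3%, 95% Wilson interval 24.0 to 44.1%), beside 17.5% of genes of like length and 39.2% of all 21779 genes. Within 10 kb the count was 59 (72.8%, 62.3 to 81.3%), beside 42.2% of like length and 56.5% of all genes. All Wilson intervals here cover counting error only. The single CTCF libraries gave 28 and 42 genes within 1 kb and 60 and 70 within 10 kb, above the like-length share in each list (18.1% and 28.1% within 1 kb, 43.9% and 52.3% within 10 kb). Over all genes the shares of these lists were 41.2% and 51.8% within 1 kb and 58.8% and 66.6% within 10 kb. Of the 61 members with a promoter entry, 32.8% had a region within 1 kb, beside 17.8% of like length and 25.5% with CpG content matched as well. Within 10 kb the share was 72.1%, beside 42.8% and 58.0%. Matching on CpG thus made both differences smaller.

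**Figure D2:**
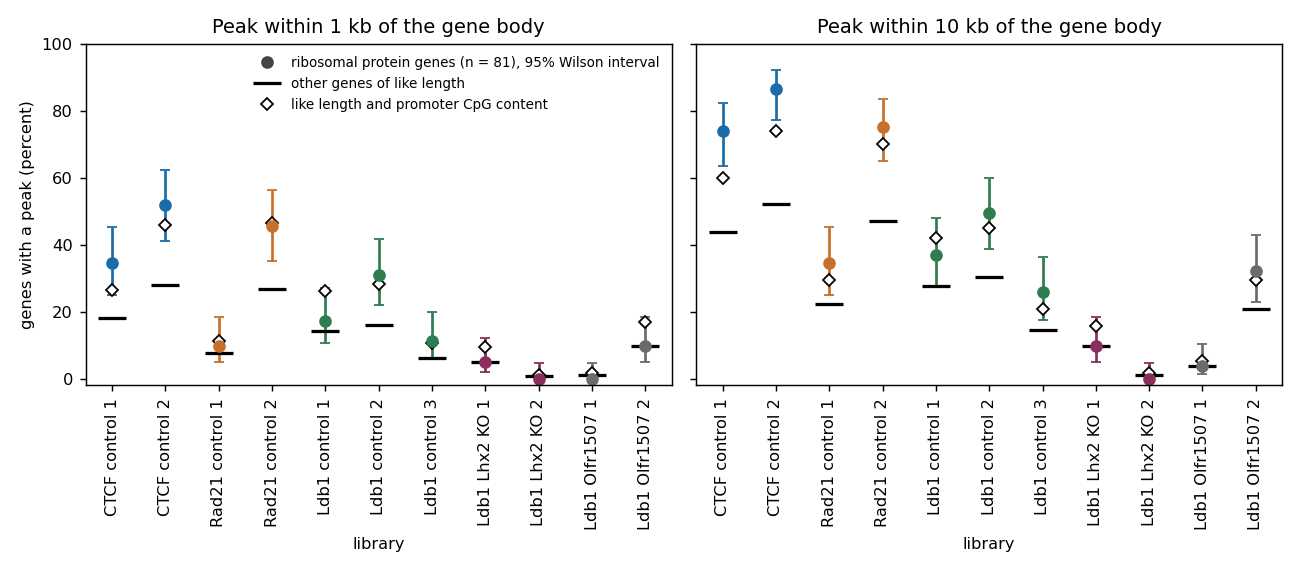
Percent of genes with a peak within 1 kb (left) and 10 kb (right) of the gene body in each of the 11 libraries. Circles are the 81 ribosomal protein genes with 95% Wilson intervals, bars other genes of like length, and diamonds genes matched on length and promoter CpG content (standardised to the 61 members with a promoter entry). Both CTCF circles lie above both comparison marks, whereas the first Ldb1 control library falls below the diamond in both panels.

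CTCF peaks were frequent at the starts of these genes. A CTCF region lay within 1 kb of the start of 21 (25.9%), beside 10.6% of like length and 11.7% of all genes. For the 61 with a known start it was 23.0%, beside 9.43% of like length and 15.8% with CpG matched. The single CTCF libraries had start peaks at 21 and 38 genes, beside 12.2% and 28% of all genes. In the second CTCF library, 29 peak centres lay within 1000 bases of an annotated start of the 61 genes with a known start, 24 of them within 300 bases. The first CTCF library had 14 and 11 such centres. Of the centres within 1000 bases, 14 of 14 in the first library and 20 of 29 in the second lay upstream of the start. Positions of centres were not counted for start peaks of all genes, so no background stands beside them. The median score percentile of the start peaks of ribosomal protein genes, ranked within each list, was 58.5 and 59.8 in the 2 libraries, beside 47.0 and 39.6 for start peaks of all genes.

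Rplp0, which anchors the P stalk that recruits elongation factors, had the highest-ranked CTCF region. Its peak scored at the 99.0 and 99.5 percentile of the 2 CTCF lists, centred at −182 and −165 bases from the start (minus is upstream). Rpl5 and Rpl11, which carry the 5S rRNA into the large subunit, both had a CTCF region at the start, at −49 and −59 bases, with mean percentiles of 95.04 and 76.5. Rpl38, a large subunit protein known for its part in Hox mRNA translation, had one at −112 bases (93.0), and Rpl10a, a protein of the L1 stalk, one at −5 bases (88.3). Rpl26 had one at −104 bases (92.6). For other genes the ranking region lay elsewhere: that of Rps19, a small subunit protein mutated in Diamond-Blackfan anaemia, was 642 bases outside the body at +6032 bases from the start (95.7), and that of Rpl22 was inside the body at +8698 bases (89.4). Rpl36 had one with a mean percentile of 88.5.

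**Figure D3:**
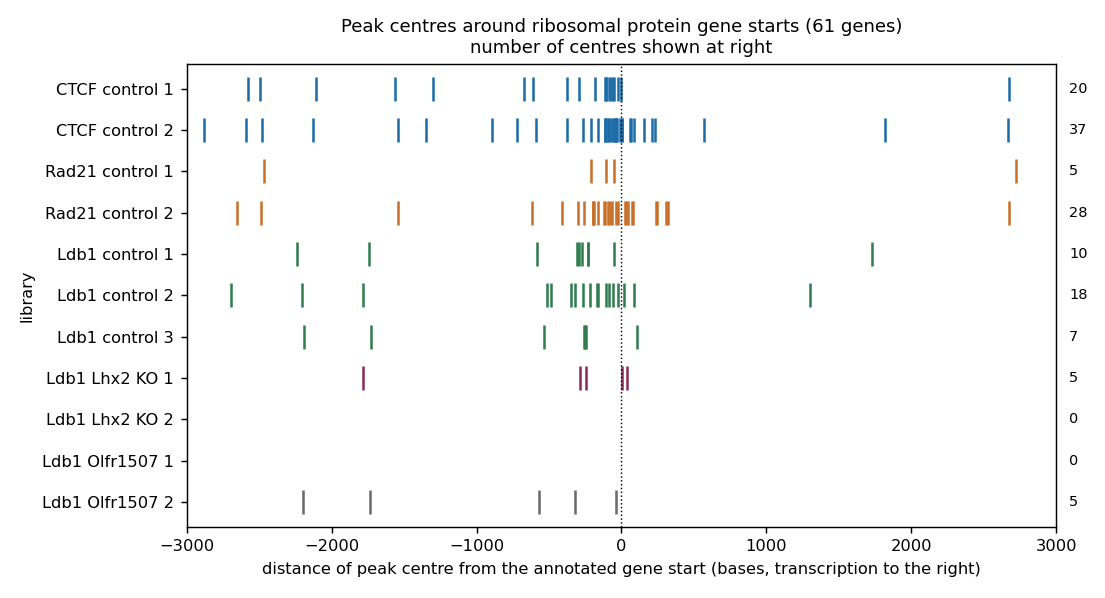
Distance of peak centres from the annotated start for the 61 ribosomal protein genes with a known start, in bases, with transcription running to the right and 1 line of ticks per library. The number of centres in the window stands at the right, from 37 in the second CTCF library to 0 in the second Lhx2 KO and first Olfr1507 libraries. Of the CTCF centres within 1000 bases, 14 of 14 and 20 of 29 lie upstream, and the share over all genes was not counted.

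Rad21 at ribosomal protein genes depended on the library. The first Rad21 library had a peak within 1 kb of 8 genes (9.88%, 5.09 to 18.3%) and the second of 37 (45.7%, 35.3 to 56.5%), beside like-length shares of 7.68% and 26.7%. The corresponding shares of all genes were 20.4% and 47.5%. Within 10 kb the counts were 28 (34.6%) and 61 (75.3%), beside 22.3% and 47.2% of like length and 32.7% and 60.4% of all genes. Start peaks were present at 5 and 33 ribosomal protein genes, beside 5.28% and 31.1% of all genes. The second Rad21 list thus counted more ribosomal protein genes than the first CTCF list, which had 28 within 1 kb, 60 within 10 kb and 21 at starts. The second Rad21 list had 23.2% of its peaks at gene starts, the first 10.5%, and the part of this in the difference was not tested. Of the 61 members with a promoter entry, 9.84% and 44.3% had a peak within 1 kb in the 2 lists. With CpG matched the comparison shares were 11.2% and 46.6%, so both lists were below them. Start peaks were at 4.92% and 39.3%, beside 6.72% and 39.5% with CpG matched. Within 10 kb the shares were 34.4% and 77.0%, above the CpG-matched 29.5% and 70.1%.

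Regions shared by both Rad21 libraries lay within 1 kb of 8 ribosomal protein genes (9.88%, beside 7.54% of like length and 19.7% of all genes) and within 10 kb of 28 (34.6%, beside 21.7% and 31.6%). Such a region lay within 1 kb of the start of 5 (6.17%, beside 4.47% and 5.14%). For the 61 members with a promoter entry, the 1 kb share was 9.84%, beside 7.66% of like length and 10.8% with CpG matched, and the 10 kb share 34.4%, beside 21.8% and 28.7%. The share at starts was 4.92%, beside 3.95% and 6.49%, so with CpG matched the 1 kb and start shares were below the comparison. Among the 8 were Rps19, Rpl11, Rpl27a, Rpl10a, Rpl3, Rpl26 and Rpl22, and 7 of the 8 belong to the large subunit. The mean percentiles of the named genes ran from 88.2 (Rps19) to 31.7 (Rpl22). Of these, Rps19, Rpl11, Rpl10a, Rpl3, Rpl26 and Rpl22 also had a CTCF region within 1 kb, and Rpl27a did not. In the first Rad21 library, 4 and 5 of 5 start peaks of ribosomal protein genes overlapped a peak of the first and second CTCF library, beside 78.5% and 91.7% of all start peaks of that list. In the second Rad21 library 14 and 22 of 33 did, beside 28.2% and 58.1%. The median percentile of those 33 peaks was 23.3, beside 42.1 for all start peaks of that list.

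Ldb1 regions lay near fewer ribosomal protein genes than CTCF regions did, as over all genes. They lay within 1 kb of 12 (14.8%, 8.68 to 24.1%), beside 11.4% of genes of like length and 30.4% of all genes, and within 10 kb of 29 (35.8%, 26.2 to 46.7%), beside 23.4% and 39.6%. The 3 control libraries gave 14, 25 and 9 genes within 1 kb (17.3%, 30.9% and 11.1%) beside 14.1%, 15.9% and 6.24% of like length. Within 10 kb they gave 30, 40 and 21, or 37.0%, 49.4% and 25.9% beside 27.7%, 30.2% and 14.5%. The shares of all genes were 33.6%, 36.8% and 22% within 1 kb, and 43.5%, 47.4% and 29.1% within 10 kb. Each library was thus above its like-length share, and within 1 kb below the share of all genes. The sign of the 1 kb difference depended on which members were counted. Of the 61 with a promoter entry, 6 (9.84%) had a region within 1 kb, beside 12.1% of like length and 21.0% with CpG content matched as well, because 6 of the 12 genes with a region are among the 20 without an entry. Within 10 kb the share was 36.1%, beside 24.0% and 34.4%.

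**Figure D4:**
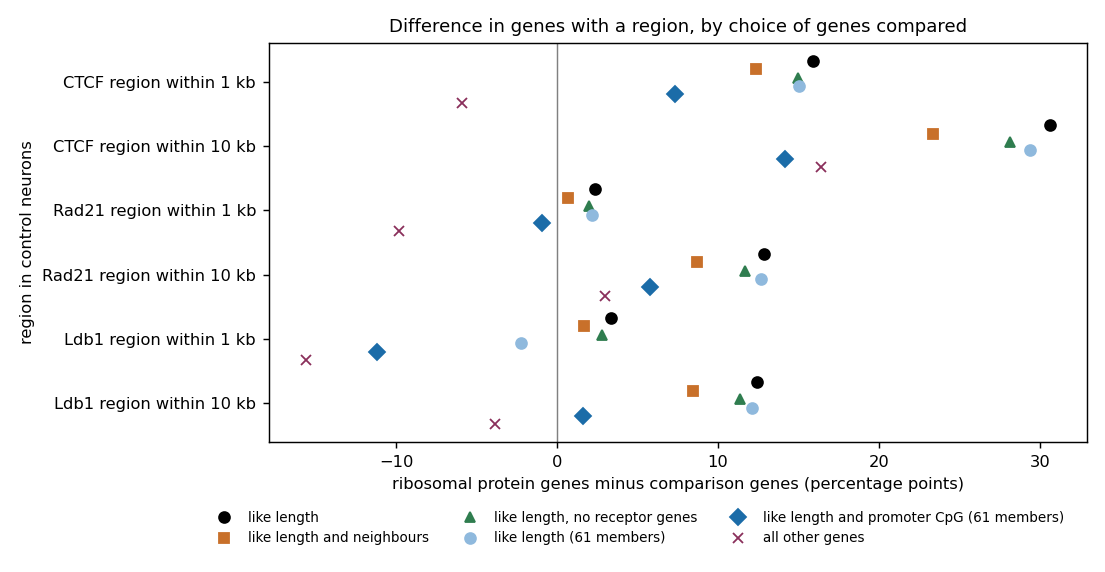
Difference in percentage points between ribosomal protein genes and comparison genes in the share with a control region, for 3 proteins and 2 windows, under 6 choices of the genes compared, of which the 2 marked so use only the 61 members with a promoter entry. The CTCF difference within 10 kb is above 0 for each choice (30.6 points for like length, 29.4 for like length with 61 members, 14.1 with promoter CpG matched). The Ldb1 difference within 1 kb runs from 3.37 points for like length to −2.27 for like length with 61 members, −11.2 with CpG matched and −15.6 against all other genes.

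Near the start, an Ldb1 region was present at 11 ribosomal protein genes (13.6%, 7.76 to 22.7%), beside 8.44% of like length and 11.9% of all genes. Of these 11, 6 are among the 20 genes with no known start, where either end was counted. Of the 61 with a known start 5 had one (8.20%), beside 8.41% of like length and 16.1% with CpG matched. The single libraries had start peaks at 13, 21 and 8 genes, beside 15.3%, 17.1% and 5.89% of all genes, and the second library, which had the longest list, was the highest. Of the 13 start peaks of the first library, 9 overlapped a peak of the second and 6 a peak of the third, beside 72.8% and 34.5% of all start peaks of that list. All 8 of the third library overlapped a peak of the second, beside 90.1%. The median percentile of the start peaks of ribosomal protein genes was 31.7, 26.5 and 18.7 in the 3 lists, beside 28.5, 29.3 and 29.7 for start peaks of all genes, so it was higher in the first library and lower in the other 2.

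Rpl26, a large subunit protein near the peptide exit, had the highest-ranked Ldb1 region, at a mean percentile of 71.8. Its peaks scored 59, 84 and 31 in the 3 control lists, at percentiles of 75.7, 79.0 and 60.6. Their centres lay at −272, −347 and −244 bases, further upstream than the centre of the CTCF region of the same gene (−104). The CTCF region overlapped this Ldb1 region and also covered the start. A peak was also called there in the first Lhx2 KO library (score 11, percentile 47.7, at −288 bases) and the second Olfr1507 library (score 61, percentile 75.5, at −321 bases). The scores are the authors' own, and their scale between libraries is unknown.

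6 other genes had a region seen in all 3 control libraries. The Rpl7 region, 34 bases outside the gene, had peaks at percentiles of 61.5, 67.0 and 44.1. That of Rpl4, whose protein lines the exit tunnel, lay 385 bases beyond the gene body at +5755 bases from the start and overlapped the neighbouring gene Snapc5 (64.2, 62.8 and 36.3). The Rpl10 region, at a gene whose protein joins the large subunit last, was centred at −553 bases, outside the window printed above (61.5, 57.2 and 33.2). The Rps23 region at −273 bases (34.6, 43.9 and 16.1) and the Rpl35a region at −261 bases (28.5, 36.5 and 16.1) reached into the printed windows, and that of Rpl35a also overlapped the neighbouring gene Iqcg. Rps23 helps to read the codon in the small subunit. The Rps27a region, at the gene that encodes a fusion of ubiquitin with a small subunit protein, overlapped Clhc1 (39.8, 20.1 and 16.1). In all 6 genes, as at Rpl26, control library 3 gave the lowest percentile, and the order of the other 2 libraries differed between genes.

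The other 5 genes had a region of 2 libraries, with mean percentiles of 22.0 (Rpl23a), 17.7 (Rpl36, overlapping Micos13), 15.6 (Rpl21), 12.5 (Rpl32) and 4.32 (Rpl10a). At Rpl10a the peaks of control libraries 2 and 3 scored 13 and 12, near the lowest scores of those lists (13 and 11), and lay at +85 and +108 bases, where both CTCF libraries had strong peaks (percentiles of 78.6 and 98.1). Rpl32 ranked below the 10 highest and was named after its values were seen.

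By role, Ldb1 regions within 10 kb lay at 21 of 44 large subunit genes, 2 of 3 P stalk genes (Rplp0 and Rplp2), 6 of 30 small subunit genes and 0 of 4 paralogs. Within 1 kb the counts were 10, 0, 2 and 0. For CTCF within 10 kb they were 32 of 44, 3 of 3, 22 of 30 and 2 of 4, and within 1 kb 18, 1, 8 and 0. For Rad21 within 10 kb they were 16, 1, 10 and 1. The large and small subunit genes thus had nearly equal CTCF shares within 10 kb (72.7% and 73.3%), while their Ldb1 shares were further apart. Within 1 kb their CTCF shares differed too (40.9% and 26.7%). Like-length shares were not computed by class. In the single control Ldb1 libraries the 10 kb counts were 21, 27 and 16 for the large and 7, 11 and 3 for the small subunit. These differences between subunits were noticed in the data and were not tested.

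Among genes fixed for lookup, Rplp1 and Rplp2, the acidic P stalk proteins, had CTCF regions within 10 kb but none within 1 kb. Rpsa, the small subunit protein also known as the laminin receptor, had CTCF and Rad21 peaks in both libraries of each within 10 kb and no Ldb1 peak. Of the paralogs, Rpl10l and Rpl39l, which are used in male germ cells, had no peak within 10 kb in any of the 11 lists. Rpl3l, a paralog of striated muscle, lies within 10 kb of Rps2 and had CTCF and Rad21 peaks within 10 kb only. Rps27l, a close relative of Rps27, had a peak within 1 kb in CTCF library 2 and Rad21 library 2 and no Ldb1 peak within 10 kb.

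Combinations of the 3 proteins were counted next. Within 10 kb of the gene body, 9 ribosomal protein genes had regions of all 3, 18 of CTCF and Rad21, 12 of CTCF and Ldb1, 20 of CTCF alone, 7 of Ldb1 alone, 1 of Rad21 and Ldb1, 0 of Rad21 alone, and 14 of none. Regions of all 3 were thus present at 11.1%, beside 8.54% of like length and 19.1% of all genes, CTCF and Rad21 at 22.2% (12.5% and 11.9%), CTCF and Ldb1 at 14.8% (6.26% and 11.1%), CTCF alone at 24.7% (14.9% and 14.3%) and Ldb1 alone at 8.64% (8.10% and 8.98%). No region was present at 17.3%, beside 49.0% and 33.9%. Within 1 kb the counts were 2, 5, 3, 17, 7, 0, 1 and 46 in the same order. There CTCF alone was at 21.0%, beside 8.26% of like length and 12.04% of all genes, and none at 56.8%, beside 74.8% and 49.7%. Counting single libraries, 19 genes (23.5%) had no peak within 1 kb in any of the 11 lists, beside 60.8% of like length and 36.3% of all genes. None within 10 kb was found for 6 (7.41%, beside 38.3% and 24.8%), among them Rpl10l, Rpl15, Rpl32l, Rpl39l and Rps29. The median was 2 libraries per gene within 1 kb and 4 within 10 kb, the same as over all genes. The means were 2.16 and 4.28, beside 1.33 and 2.74 of like length and 3.03 and 4.04 over all genes.

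The Lhx2 KO lists held few peaks at ribosomal protein genes. The first library had a peak within 1 kb of the start of 4 (4.94%, 1.94 to 12.02%), beside 4.08% of genes of like length and 6% of all genes. The second had 0 (up to 4.53%), beside 0.446% and 0.478%. The same 4 genes and 0 genes had a peak within 1 kb of the body (11.5% and 1.58% of all genes), and 8 and 0 had one within 10 kb (15.2% and 2.12%). A region shared by both libraries lay at 0 ribosomal protein genes. Of all genes, 0.243% had one within 1 kb of the start, 1.11% within 1 kb of the body and 1.53% within 10 kb. The control lists had start peaks at 13, 21 and 8 ribosomal protein genes, beside 15.3%, 17.1% and 5.89% of all genes. The counts at ribosomal protein genes thus do not overlap between the groups in full lists. Over all genes the shares do, since the first KO library (6%) lies above the third control library (5.89%). The 2 KO lists are also the shortest of the 5. With each list cut to its 542 highest-scoring peaks, all 5 libraries had 0, and the comparison says nothing (difference 0, two-sided exact permutation p = 1, smallest possible 0.1). Like-length shares at that length were at most 0.446%, so a difference was not detectable.

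Without the short second KO library, lists cut to 4290 peaks had a start peak at 4 ribosomal protein genes in the remaining KO library, against 0 for each control library. The KO side is then 1 library, and these counts are given as a description. This difference was shared by genes at large: 6.00% of all genes and 4.08% of those of like length had a start peak in that KO list, against 0.698 to 0.758% and 0.553 to 0.640% in the control lists of that length. The lowest score kept was 9 in the KO list, which is used whole, and 46, 83 and 116 in the control lists, of which only the top is used. Start peaks of low score could therefore be counted in the KO list alone. Gene starts took 28.1% of the first KO list and 7.49 to 12.4% of the full control lists.

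The 4 genes of the first KO library were Rpl10a, Rpl26, Rpl7a and Rpl9, all of the large subunit. At Rpl26 the peak overlapped peaks of all 3 control libraries, and at Rpl10a (score 10, at +40 bases) those of 2. Rpl7a (score 10, at −246 bases, overlapping the neighbouring gene Med22) and Rpl9 (score 9, at +1 base, overlapping Lias) had a peak that overlapped no peak of the control Ldb1 lists. Start peaks absent from all control lists were thus present at 2 of 81 ribosomal protein genes (2.47%, 0.680 to 8.56%), beside 1.74% of like length and 2.51% of all genes. In the second KO library it was 0, beside 0.123% and 0.174%. The test between libraries again had 0 in all lists at equal length (p = 1, exact permutation). The lowest score in the first KO list was 9, so the Rpl9 peak is at the floor of its list. Of the 4 peaks, 1 and 4 overlapped a peak of the first and second Rad21 control library, beside 7.39% and 54.4% of all start peaks of that KO list. A peak of each CTCF library overlapped 2 of 4, beside 9.13% and 35.8%.

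Olfr1507 libraries shared the same 3 control lists. Their first list had 0 ribosomal protein genes with a start peak (beside 0.647% of like length and 0.776% of all genes) and the second 7 (8.64%, beside 6.91% and 9.79%). Within 1 kb of the body the first list had 0 and the second 8 genes (8.79% and 27.6% of all genes), namely Rpl26, Rpl7, Rpl4, Rpl10, Rps27a, Rpl36, Rpl23a and Rps19. Each of the 8 also had a peak within 1 kb in at least 1 control Ldb1 list, not always at the same place. The like share over all genes was not counted. Of the 7 start peaks of the second list, 4, 4 and 4 overlapped a peak of control Ldb1 libraries 1, 2 and 3. The shares of all start peaks of that list were 78.0%, 82.6% and 49.8%. Within 10 kb the 2 lists had 3 and 26 genes (11.6% and 36.4% of all genes), and the 3 genes of the first list were Rpl18, Rpl19 and Rpl37. Regions of both lists lay within 10 kb of these 3 (3.70%, beside 3.81% of like length and 11.6% of all genes) and within 1 kb of 0 (8.77% of all genes, and 0.808% within 1 kb of the start). Cut to 5095 peaks, all 5 lists had 0 start peaks at ribosomal protein genes (p = 1, exact permutation, smallest possible 0.1). The first Olfr1507 list, used whole at that length, had a like-length share of only 0.647%. Few such peaks were thus likely in it, and the comparison says little. Without the first Olfr1507 library, lists cut to 16067 peaks had 4 in the second Olfr1507 library and 4, 3 and 8 in the control libraries, so the values overlap.

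Other gene lists of the translation machinery were counted in the same way. Of 78 mitochondrial ribosomal protein genes, which encode the separate ribosome of the organelle, 57 had a CTCF region within 10 kb (73.1%, beside 51.3% of like length), 27 a Rad21 region (34.6%, beside 27.3%) and 30 an Ldb1 region (38.5%, beside 30.6%). Within 1 kb a CTCF region lay at 32 (41.0%, beside 28.2%). Of 30 translation factors and ribosome-making genes, 23 had a CTCF region (76.7%, beside 55.9%), 11 a Rad21 region (36.7%, beside 30.1%) and 14 an Ldb1 region (46.7%, beside 34.5%). Within 1 kb a CTCF region lay at 15 of these 30, beside 33.5% of like length. An Ldb1 region lay within 1 kb of the start of 9 of those 30 (30.0%, 16.7 to 47.9%), beside 11.9% of like length. That share was 11.5% in the mitochondrial and 13.6% in the cytoplasmic ribosomal protein genes. Differences between the lists were not tested.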

How the data were processed

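Peak lists of 11 ChIP-seq libraries were used as deposited. Per the labels' protocols, cells were fixed, sorted and sonicated. The submitters' processing notes name the build mm10 and the tools HOMER 4.7, SAMtools 1.3.1, Bowtie2 2.3.2, cutadapt 1.9.1, STAR 2.5.3a and Picard, with no roles. What threshold and control library peak calling used is not given in the sources used here. A score, a whole number deposited by the authors, goes with every peak. It served to rank peaks inside their own list (as a percentile) and to cut lists to equal length.

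Ribosomal protein genes, and the gene lists set beside them, were chosen with earlier results of these data known. Named genes were, per protein, the up to 10 with the highest mean score percentile of a region within 1 kb (an absent peak counts as 0), all with an Lhx2 KO peak within 1 kb, and the P stalk genes, Rpsa, Rps27a and the paralogs. Rps4l is not protein-coding in the annotation. Gene positions came from the RefSeq table of GRCm38.p6, leaving out 108 genes on scaffolds, and peaks were counted with an overlap of at least 1 base. The annotated start came from the promoter table for 61 members. For the other 20, both gene ends counted as possible starts. Among these were Rpl7, Rps20, Rpl21, Rpl32, Rplp1, Rpl29, Rps27a, Rpl23a, Rps29, Rpl30, Rpl8, Rpl3, Rpl36, Rps14 and Rpl17. A few members enter the counts but are not reported here by name. Like-length shares averaged other genes over 10 length bins weighted by the members. On simulated data with planted differences of 0, 15 and 30 points, 200 runs each over 21779 genes gave means of 0.0578, 15.7 and 30.0 points. There the background share depended on gene length alone. The runs thus check the calculation, not other differences between the genes such as promoter CpG content. Libraries were compared by two-sided exact permutation. Python 3.11.15, numpy 2.4.6, scipy 1.17.1 and matplotlib 3.10.9 were used.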

Additional observations from a re-analysis of the deposited data

How the results depend on the processing

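Values are percentage points by which the ribosomal protein genes exceed genes of like length. For CTCF and Rad21, leaving out a library left the peaks of the single other library, not regions shared between libraries. For CTCF within 1 kb (15.9) they were 25.7 with peaks of any library, 10.6 with the higher-scoring part of each list (its top 50%), −5.90 without length matching and 7.33 with promoter CpG matched, and 16.4 to 23.8 leaving out each library. For CTCF within 10 kb (30.6) they were 34.3, 25.4, 16.4 and 14.1 under the same settings, 23.4 with the number of neighbours matched, and 30.2 to 34.1 leaving out each library. For Rad21 within 1 kb (2.33) they were 18.8 with any library, −0.112 with the top 50%, −9.84 without length matching, −0.933 with CpG matched, and 2.20 to 19.0 leaving out each library, the highest without the first. For Rad21 within 10 kb (12.9) they were 27.7 with any library, 2.69 with the top 50%, 2.98 without length matching, 5.75 with CpG matched and 12.2 to 28.1 leaving out each. For Ldb1 within 1 kb (3.37) they were 15.9 with any library, −15.6 without length matching, −11.2 with CpG matched, −2.27 for like length with only the 61 members that have a promoter entry, and 1.21 to 5.10 leaving out each library. For Ldb1 within 10 kb (12.4) they were 17.8, −3.86 and 1.62 under those settings, 6.90 with the top 50% and 10.4 to 13.03 leaving out each. With the number of neighbours matched as well as length, values were 12.3 for CTCF within 1 kb. For Rad21 they were then 0.677 within 1 kb and 8.72 within 10 kb, and for Ldb1 1.66 and 8.47. The causes were not tested. Like length with only the 61 members gave 15.01, 29.4, 2.18, 12.7 and 12.1 for the other 5 results in the order given, and CpG matching rests on the same 61 members. CpG matching, receptor genes left out and the members with a promoter entry alone were chosen after seeing the data.

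Between groups, full lists gave start-peak differences of −14.8 points for Lhx2 KO and −12.96 for Olfr1507 (exact permutation p = 0.2 each). After subtracting each list's like-length share they were −8.03 and −7.69 (exact permutation p = 0.1 each, the smallest possible). That subtraction was not planned beforehand. Leaving out each library in turn at equal list length gave 0 to 4.94 points for Lhx2 KO, −1.23 to 0 for Olfr1507, and 0 to 2.47 for start peaks absent from control. The replicate block, pairing libraries of the same number, gave 0 for all 3 comparisons (exact permutation p = 1, smallest possible 0.5). It used the lists cut to equal length, in which every library had 0, so it could give nothing else. The labels give no sign that a shared number marks a shared animal or day. List length, of unknown depth, limits every comparison of groups.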
